A study of Mus musculus with 17 samples.

Results

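Mouse liver RNA was compared gene by gene between a high-fat diet (HFD, 4 libraries) and a control diet (CD, 4 libraries). These 8 libraries, chosen by their labels, are all the RNA libraries among the 17 samples of the series, and each of the 12334 genes that the count table lists with a symbol entered the comparison. The animals were C57BL/6 mice, a common inbred laboratory strain, and ate a diet with 60% (HFD) or 18% (CD) of its calories as fat for 10 weeks. The labels name no other treatment and no allele, and do not give sex, age, hour of collection or feeding state. Within each diet the libraries carry the letters A to D, and nothing in the labels says whether each came from an animal of its own. The genes on a clock list and on a cholesterol synthesis list were set aside, and the other changed genes are described by function. Whether the changes of those other genes are separate from those of the clock genes was not tested.

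The liver takes up nutrients from the portal blood, stores glucose as glycogen, breaks down amino acids, packages lipids and clears drugs, hormones and bile acids. Clearance runs in steps: cytochromes P450 and other oxidising enzymes first expose a reactive group, and conjugating enzymes then attach glucuronate, sulfate or glutathione. Hepatocytes also secrete most plasma proteins and hormones such as hepcidin, which limits iron entry into blood. Many of these genes lie in tandem families of close relatives, and individual members of a family often serve different substrates.

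Total counts lay between 31802893 and 37596560 per library. Levels are given as CPM (counts scaled to a common library size, with the TMM correction for library composition), and changes as the log2 ratio of HFD to CD with its standard error, SE. A gene is called when its p-value from edgeR's quasi-likelihood test, adjusted over all genes by the Benjamini-Hochberg method, lies under 0.05. Markers fit the labelled tissue: 13 of 13 hepatocyte markers were measured and summed to between 127345 and 166019 CPM. In bulk RNA, fewer cells of a type and less RNA per cell cannot be told apart. HFD A and B stood apart from HFD C and D, with 38 and 31.2 on the first principal component against 13.8 and 13.2, and -31 to -17.8 in the CD libraries. Each column heading carries a pair of numbers. The first is lowest for HFD A and B, higher for HFD C and D and highest under CD, and the other is lower in each CD library than in any HFD library. What they stand for is not stated, and it cannot be told apart from the diet.

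Of the 12334 genes 897 were called, or 7.27%, with 448 higher (3.63%) and 449 lower (3.64%) in HFD. The median change over all genes was 0.01. At least a 2-fold difference was seen in 361 called genes, 151 of them higher and 210 lower. The diets did not overlap in 874 of the called genes and in 1761 of all genes (14.3%), 7.26% with HFD above and 7.01% with HFD below. Leaving out HFD B lowered the count of calls to 478, and leaving out CD A, CD B or CD C lowered it to 584, 563 or 586, while 448 of the genes were called whichever single library was left out. Without HFD A and B 844 genes were called, of which 563 were among the 897. Without HFD C and D 1280 were, of which 712 were among the 897. Of the called genes 255 belong to one of the lists used below and 642 to none.

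Cyp2b9, a cytochrome P450 gene on chr7 (7:26173409-26210660 in mm10), went from near silence to a clear signal. Its reads numbered 3 in the 4 CD libraries together and 6114 in the 4 HFD libraries, and the ratio per unit of depth was 2080 (95% counting interval 711 to 10088). Its HFD levels were 56.8, 67.4, 30.5 and 27.3 CPM in A to D. Mfsd2a, a transporter of lysophospholipids, had 4.94, 6.79, 6.7 and 8.43 CPM under CD and 208, 214, 57.5 and 77.1 CPM under HFD (log2 change 4.37, SE 0.44, adjusted p = 3.55e-04). HFD A and B were the high libraries in both genes. The diets did not overlap, which the choice of these genes required. Rdh9, a retinol dehydrogenase, was even across libraries, with 25.5 to 31.9 CPM under CD and 103 to 142 CPM under HFD (log2 change 2.11, SE 0.12, adjusted p = 1.71e-05). Cyp17a1, a steroid hydroxylase, had 2.16 to 3.04 CPM under CD and 29.1, 21.2, 15.9 and 35.4 CPM under HFD (log2 change 3.34, SE 0.25, adjusted p = 7.04e-05).

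Further large increases were those of Rgs16, which shortens G-protein signals (log2 change 4.28), the deubiquitinase gene Usp2 (3.42), Ccrn4l, which encodes nocturnin (3.40), the uridine phosphorylase Upp2 (2.18), the lipoprotein gene Apoa4 (1.91) and the sterol exporter subunit Abcg5 (1.76). Usp2 showed the split of the HFD libraries, at 43.2 and 56 CPM in A and B against 9.08 and 12 CPM in C and D, with 2.34 to 4.05 CPM under CD. The call of Rgs16 (adjusted p = 0.0164) was lost without CD A or CD C (up to 0.0564). Pde4b, which degrades cyclic AMP, had 13.6 to 15.3 CPM under CD and 33 to 48 CPM under HFD, with no such split (log2 change 1.51, SE 0.12, adjusted p = 1.22e-04). Acnat2, a peroxisomal acyltransferase, and 1810055G02Rik had changes of 1.69 and 1.51.

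**Figure D1:**
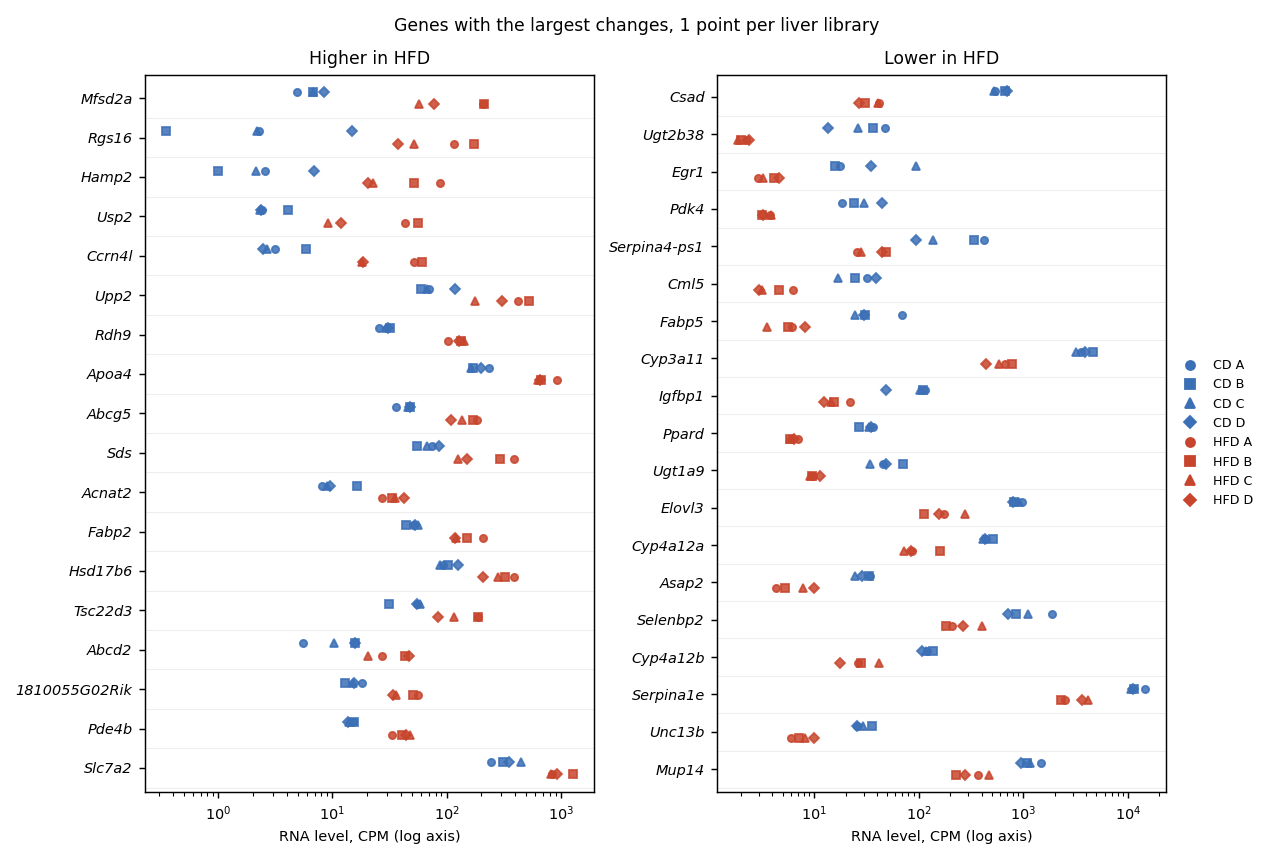
Levels of genes among those with the largest increases (left, Cyp2b9 left out because 1 CD value is 0) and decreases (right) in each library, in CPM on a log axis, with CD in blue, HFD in red and a symbol for each letter. The genes were chosen among those whose 4 HFD points lie on one side of the 4 CD points. Mfsd2a, Usp2 and Ccrn4l show HFD A and B to the right of HFD C and D.

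Among the decreases, Csad, which makes the taurine precursor hypotaurine, had 542, 676, 525 and 698 CPM under CD and 41.7, 31, 40.7 and 26.9 CPM under HFD (log2 change -4.12, SE 0.18, adjusted p = 3.51e-06). The gene lies at 15:102176998-102189043 on the minus strand. Slc34a2, a sodium-phosphate cotransporter, had 4.69 to 6.45 CPM under CD and 0.122 to 0.395 CPM under HFD (log2 change -4.75, SE 0.31, adjusted p = 3.06e-05). Ppard, a nuclear receptor for fatty acids, had 26.9 to 36.7 CPM under CD and 5.91 to 6.95 CPM under HFD (log2 change -2.38, SE 0.13, adjusted p = 7.69e-06). In these 3 genes the diets were far apart, and HFD A and B did not stand apart from HFD C and D. Slc45a3, a membrane transporter gene, had 47.4 to 52.7 CPM under CD and 20.3 to 23.3 CPM under HFD (log2 change -1.16, SE 0.09).

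Other large decreases were those of the immediate early gene Egr1 (log2 change -3.45), Cspg5, a proteoglycan gene (-2.91), Cml5, of the camello family of N-acetyltransferases (-2.73), Fam222a (-2.44), Asap2, a GTPase-activating protein of vesicle traffic (-2.15), and Unc13b, a vesicle priming factor (-1.90). Egr1 had 17.8, 15.7, 94.8 and 35.3 CPM under CD and 2.9 to 4.65 CPM under HFD, so its CD libraries were far apart and its HFD libraries close.

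Among the conjugating enzymes, more sulfotransferase genes rose than fell, and more genes of glucuronidation fell than rose. Of 12 measured genes of sulfotransferases, sulfate supply and sulfate removal 6 rose and 1 fell, with a median log2 change of 0.67 against 0.01 over all genes. Sult1d1 had 81.4, 77.3, 68.8 and 64.3 CPM under CD and 181, 192, 170 and 173 CPM under HFD (log2 change 1.30, SE 0.10, adjusted p = 9.59e-05). Sult1c2 (1.93, SE 0.24), Sult1b1 (1.04, SE 0.14), Sult1a1 (0.90, SE 0.15), the sulfate transporter gene Slc26a1 (0.60, SE 0.10) and Sulf2, which removes sulfate from heparan chains (1.61, SE 0.20), were the other genes that rose. Papss1, which makes the activated sulfate that sulfotransferases use, fell (-0.50, adjusted p = 0.0235, up to 0.0861 with CD B, CD C or HFD B left out).

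Of 19 genes of UDP-glucuronosyltransferases and their sugar supply 6 fell and 2 rose (median -0.24). Ugt1a9 had 45.9, 70.4, 34 and 48.7 CPM under CD and 9.17 to 11.4 CPM under HFD (log2 change -2.31, SE 0.20, adjusted p = 1.33e-04). Ugt2b38 had 47.9, 37, 26.5 and 13.6 CPM under CD and 1.86 to 2.4 CPM under HFD (log2 change -3.88, SE 0.35, adjusted p = 1.77e-04). Ugdh, which oxidises UDP-glucose to the UDP-glucuronate that these enzymes transfer, fell (-0.91, SE 0.17), while Ugp2, which makes UDP-glucose, rose from 333 to 400 CPM under CD to between 696 and 756 CPM under HFD (log2 change 1.03, SE 0.10, adjusted p = 1.77e-04). Without HFD B 3 members fell and 1 rose: the calls of Ugt2b5 (-0.60), Ugt2b37 (-2.26) and Ugt2b35 (-0.93) were then lost (adjusted p = 0.0505 to 0.0554). The remaining called member, Ugt3a1 (0.52, adjusted p = 0.0398), was called only with all libraries or without CD C or HFD A.

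Both families meet on chr5, where 10 listed genes fill 679 kb (5:86889770-87569006). Ugt2b34, Ugt2b1, Ugt2b36 and Ugt2a3 were not called, Ugt2b35, Ugt2b5, Ugt2b37 and Ugt2b38, which lie between or beside them, fell, and Sult1b1 and Sult1d1, which start 624 and 665 kb from the start of Ugt2b34, rose. Ugt2b38 and Sult1b1, next to each other in the table, changed in opposite directions. The members that were not called had changes of -0.24 (Ugt2b34), -0.53 (Ugt2b1), 0.06 (Ugt2b36) and 0.33 (Ugt2a3). Members of such families are alike in sequence, and reads may have been assigned to the wrong one.

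**Figure D2:**
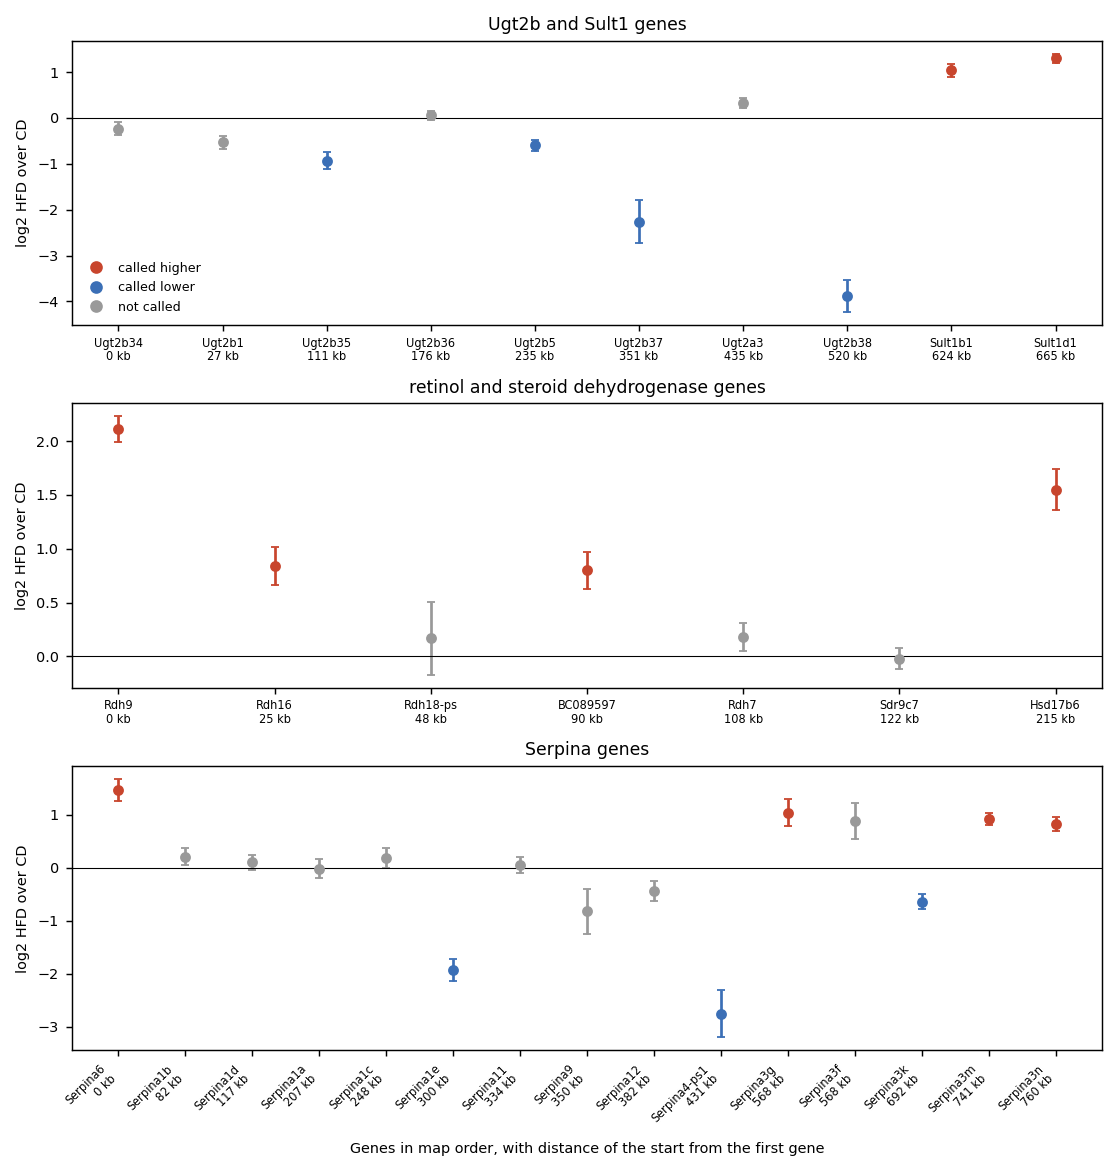
Log2 change of HFD over CD (points) with its standard error (bars) for all listed genes of 3 tandem clusters in map order, with the distance of each gene's start from the first in kb below its name. Called genes are red (higher) or blue (lower) and the others grey, and in each cluster called genes stand beside neighbours near 0.

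Of 66 cytochrome P450 genes 8 rose and 15 fell (median -0.12), and without HFD B 5 rose and 11 fell. Cyp3a11, the main mouse P450 for drugs of many kinds, had 3574, 4643, 3218 and 3874 CPM under CD and 675, 777, 585 and 438 CPM under HFD (log2 change -2.63, SE 0.19, adjusted p = 6.28e-05). Cyp2c55 (-2.20), Cyp2c29 (-1.30), Cyp4a12b (-2.08) and Cyp4a12a (-2.17) also fell. The summed level of the P450 genes was 25818 to 28335 CPM under CD and 25557, 24574, 23746 and 20713 CPM under HFD (A to D). Each HFD library was therefore below each CD library, but this rests on Cyp3a11, whose mean was 3827 CPM under CD and 619 CPM under HFD. Without that gene the sums of the diets overlap. Cyp2e1, a P450 of ethanol and small solvents, rose from between 5074 and 6353 CPM to between 7607 and 9131 CPM (log2 change 0.61, adjusted p = 0.0119, and 0.0544 without HFD B).

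Carboxylesterases, which cleave esters of drugs and lipids, had 5 of 16 members lower and 0 higher (median -0.25). Ces2a had 369 to 462 CPM under CD and 211, 185, 155 and 127 CPM under HFD (log2 change -1.30, SE 0.16, adjusted p = 8.90e-04). Ces2c (-1.51), Ces4a (-1.98), Ces2b (-4.29) and Ces1d (-1.46) also fell. Ces2b, Ces2c and Ces2a lie with Ces2e within 201 kb on chr8, and Ces2e was not called (0.36, adjusted p = 0.157). Targets of NRF2, the transcription factor of the oxidant response, had 8 of 32 members lower and 0 higher (median -0.21). Osgin1, an oxidative stress gene, had 295 to 388 CPM under CD and 78.3 to 142 CPM under HFD (log2 change -1.51, SE 0.18, adjusted p = 8.93e-04). Gstm3 (-1.76), Gstp1 (-1.08) and Gstm4 (-0.93), which conjugate glutathione, fell with Gclc, which starts glutathione synthesis (-0.89), and Ephx1, which opens epoxides (-1.24). Without HFD A and B 12 of the NRF2 targets fell, and without HFD C and D 9 did. Ugdh and the glutathione reductase Gsr (-0.51) were the other called members.

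Of 40 genes listed as alcohol, aldehyde and carbonyl oxidoreductases 2 rose and 2 fell, 10% against 7.27% of all genes. Aox1, an aldehyde oxidase that also oxidises nicotinamide derivatives, had 149 to 223 CPM under CD and 75.3 to 87.6 CPM under HFD (log2 change -1.19, SE 0.13, adjusted p = 4.77e-04). Ephx1, which opens epoxides and is not itself an oxidoreductase, was the other listed gene that fell. Akr1d1, a steroid reductase of bile acid synthesis, rose (0.81, SE 0.10) with Aldh1b1, a mitochondrial aldehyde dehydrogenase (0.90, SE 0.18).

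Retinoid genes changed in both directions, 2 higher and 4 lower of 26. Besides Rdh9, Rdh16 rose (0.84, adjusted p = 0.0188), a call lost without CD A, CD B, CD C or HFD B (up to 0.0769). Rarres1, a retinoid-responsive gene, fell from between 55.9 and 107 CPM to between 19 and 31 CPM (log2 change -1.51, SE 0.23), and the retinal reductase Rdh11 fell by 1.12. The reductase Dhrs3 (-0.57) lost its call without HFD B (adjusted p = 0.0508), and the dehydrogenase Dhrs9 (-1.42) without CD A, CD B, CD C or HFD B (up to 0.099). Without HFD B the list had 1 higher and 2 lower, and without CD A, CD B or CD C 1 higher and 3 lower. Rdh9 and Rdh16 lie in a cluster of 7 listed genes over 231 kb of chr10 (10:127776405-128007508), of which 4 rose and 3 were not called. The far end held Hsd17b6, which oxidises steroids and retinol, at 93.9, 102, 87.7 and 127 CPM under CD and 388, 328, 282 and 209 CPM under HFD (log2 change 1.55, SE 0.19, adjusted p = 8.84e-04). BC089597 rose (0.80, adjusted p = 0.0156, and up to 0.0577 without CD B, CD C or HFD B). Rdh7 (0.18, adjusted p = 0.494), Rdh18-ps (0.17) and Sdr9c7 (-0.02) in the same cluster were not called.

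Of 51 genes of amino acid breakdown 11 rose and 0 fell, 45 had positive changes, and the median was 0.32. Oat, the ornithine aminotransferase, had 572, 390, 427 and 351 CPM under CD and 1010, 1025, 1096 and 923 CPM under HFD (log2 change 1.22, SE 0.15, adjusted p = 9.16e-04). Got1, the cytosolic aspartate aminotransferase (1.37), Agxt2, an alanine-glyoxylate aminotransferase (0.70), and Bckdhb, a subunit of branched-chain keto acid dehydrogenase (0.63), rose as well. Sds, which deaminates serine, had 54.6 to 86.6 CPM under CD and 386, 296, 127 and 152 CPM under HFD (log2 change 1.76, SE 0.32, adjusted p = 0.0086), with HFD A and B high. Without HFD B 7 members rose, without HFD A and B 8 rose and 2 fell, and without HFD C and D 21 rose.

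Of 15 urea cycle and ammonia genes 3 rose (median 0.40), Glul (0.48), Car5a (0.64) and Aqp9 (0.36), which make glutamine, supply bicarbonate and carry glycerol and urea. Each call was lost without CD C or HFD B, that of Car5a also without CD A or CD B, and that of Aqp9 without any 1 of the 8 libraries (adjusted p up to 0.139). The count of the list was 1 without CD A or CD B, 0 without CD C or HFD B, 2 without CD D and 5 without HFD A. Of 31 amino acid transporters 4 rose and 1 fell. Slc7a2, a transporter of arginine, lysine and ornithine, had 247 to 450 CPM under CD and 831, 1288, 817 and 935 CPM under HFD (log2 change 1.51, SE 0.20, adjusted p = 0.00148). The glutamine and neutral amino acid transporters Slc38a4 (0.72) and Slc38a3 (0.85, lost without HFD B, adjusted p = 0.0561) and the glutamate transporter Slc1a2 (0.92) rose, and the glutamine transporter Slc1a5 fell (-1.33).

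Of 23 taurine and sulfur amino acid genes 3 rose and 2 fell. Beside the fall of Csad, Mat1a, which makes S-adenosylmethionine in adult liver, had 1536 to 1879 CPM under CD and 2822 to 4051 CPM under HFD (log2 change 1.04, SE 0.14, adjusted p = 0.00137). The sulfide oxidising genes Sqrdl (0.52, up to 0.151 without CD A, CD B, CD C, HFD A, HFD B or HFD D) and Ethe1 (-0.83, up to 0.105 without CD A, CD D, HFD B, HFD C or HFD D) were called in opposite directions, and the diets overlapped in Ethe1. The list had 1 lower member without CD A, CD D, HFD B, HFD C or HFD D.

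Serine, asparagine and ATF4 target genes, which respond to amino acid shortage, had 5 of 35 members lower and 0 higher. That was 14.3% of the list, against 7.27% of all genes. Asns, which makes asparagine, had 2.45, 6.1, 2.85 and 1.82 CPM under CD and 0.301 to 0.943 CPM under HFD (log2 change -2.26, SE 0.43, adjusted p = 0.0104). The other 4 were Tars (-0.59), Ppp1r15a (-0.74), Atf4 (-0.56) and Mthfd2 (-0.73), each of which lost its call without HFD B (up to 0.136). Ppp1r15a lost it also without CD B or CD D, and Atf4 and Mthfd2 also without CD A, CD B, CD C, CD D, HFD C or HFD D. The count of lower members was 1 without HFD B, 2 without CD B or CD D, and 3 without CD A, CD C, HFD C or HFD D.

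Of 24 genes of glycogen metabolism 7 rose and 0 fell (median 0.26). Ugp2, whose product is also the glucose donor for glycogen, led them. Gys2, the liver glycogen synthase, had 136 to 159 CPM under CD and 283, 268, 192 and 203 CPM under HFD (log2 change 0.72, SE 0.14, adjusted p = 0.0106). The branching enzyme gene Gbe1 (0.43), the glucose-6-phosphate transporter gene Slc37a4 (0.73) and Gckr (0.60) rose, with calls lost without CD A, CD B, CD C or HFD B (up to 0.147). Gbe1 lost it also without CD D, HFD C or HFD D, and Slc37a4 and Gckr also without HFD A. The list had 3 called members when CD A, CD B, CD C or HFD B was left out, and 6 without HFD A and B.

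Glycolysis, fructose and pentose phosphate genes had 4 of 36 members higher and 2 lower. Slc2a5, a fructose transporter, rose from between 2.8 and 4.78 CPM to between 7.07 and 12.7 CPM (log2 change 1.26, SE 0.22, adjusted p = 0.00585), and Aldoc, an aldolase, fell (-0.79). The calls of Fbp1 (0.52) and Sord (0.44) were lost without CD A, CD B, CD C, CD D or HFD B, that of Sord also without HFD A or HFD C, and that of Pfkfb4 (-0.92) without any 1 of the 8 libraries (up to 0.151). The list had 2 higher and 1 lower when CD A, CD B, CD C or HFD B was left out, and 1 lower without HFD C or HFD D. Pdk4, which restrains the entry of pyruvate into the citric acid cycle, fell from between 18.7 and 44.4 CPM to between 3.16 and 3.87 CPM (log2 change -3.06, SE 0.25, adjusted p = 1.22e-04).

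Of 23 targets of cyclic AMP and CREB, the pathway of glucagon, 6 rose and 0 fell, while the median was -0.01. Ppargc1a, a coactivator of mitochondrial genes, had 6.02 to 8.63 CPM under CD and 13.5, 18.8, 9.96 and 16 CPM under HFD (log2 change 0.98, SE 0.19, adjusted p = 0.0119). Pde4b and Rgs16 are 2 of the others. Pck1, which controls glucose synthesis, had 994 to 1734 CPM under CD and 3592, 3659, 1771 and 1795 CPM under HFD (log2 change 1.04, adjusted p = 0.047, up to 0.162 without CD A, CD B, CD C, CD D, HFD A or HFD B). The calls of Nr4a2 (1.44) and Adcy9 (0.48) were lost without CD A, CD C, CD D, HFD B or HFD D, that of Nr4a2 also without HFD A, and that of Adcy9 also without CD B or HFD C (up to 0.123). The list had 2 higher without CD A or CD C, 3 without CD D or HFD B, 4 higher and 2 lower without HFD A, 5 higher and 1 lower without HFD C, and 3 higher and 1 lower without HFD A and B.

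Of 27 glucocorticoid-responsive genes 7 rose and 3 fell (median 0.49). Serpina6, which encodes the cortisol and corticosterone carrier of plasma, had 126 to 164 CPM under CD and 531, 432, 254 and 324 CPM under HFD (log2 change 1.46, SE 0.21, adjusted p = 0.00198). Tsc22d3, an anti-inflammatory glucocorticoid target, had 31 to 58.6 CPM under CD and 190, 189, 117 and 83.6 CPM under HFD (log2 change 1.54, SE 0.28, adjusted p = 0.00807). Klf15, a factor of amino acid and glucose metabolism, rose by log2 1.08. Igfbp1 (-2.54) and Zbtb16 (-1.30), which belong to the same list, fell. In Serpina6, Tsc22d3 and Klf15 HFD A and B were above HFD C and D.

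Among nuclear receptors 3 of 35 rose and 3 fell. The receptors for fatty acids diverged. Ppara, which drives fatty acid oxidation in liver, had 233 to 318 CPM under CD and 457, 605, 518 and 513 CPM under HFD (log2 change 0.99, SE 0.13, adjusted p = 0.00116), while Ppard fell and Pparg, the receptor of fat storage, fell by 1.11 (adjusted p = 0.0253, up to 0.0679 without CD A, CD B, HFD B, HFD C or HFD D). Thra, a thyroid hormone receptor, fell (-0.69, SE 0.12). Nr2f2 rose (0.52), with its call lost without CD C or HFD B (up to 0.0575), and Nr4a2 was the other receptor that rose. Without HFD B 1 receptor rose and 2 fell, without CD C 1 rose, and without HFD A 6 rose.

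Fatty acid binding and activation genes changed one by one, with 3 of 37 higher and 4 lower. Fabp2, the binding protein best known from intestine, had 44.4 to 55.8 CPM under CD and 210, 152, 122 and 118 CPM under HFD (log2 change 1.56, SE 0.18, adjusted p = 6.37e-04). Fabp5, the epidermal type, had 70.1, 30.9, 24.4 and 29.7 CPM under CD and 3.53 to 8.21 CPM under HFD (log2 change -2.72, SE 0.36, adjusted p = 0.00132). The thioesterase genes Acot11 (1.19) and Them4 (0.75) rose, and Acot1 (-0.92), and the acyl-CoA synthetase genes Acsm2 (-2.21) and Acsl1 (-0.51) fell. Without HFD A or HFD C 5 members rose. Elovl3, which elongates very long fatty acids, fell from between 801 and 967 CPM to between 112 and 278 CPM (log2 change -2.28, SE 0.24, adjusted p = 4.22e-04). Abcd2, a peroxisomal importer of very long acyl groups, rose by log2 1.52 (adjusted p = 0.0238, up to 0.0825 without CD C, HFD B or HFD D).

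Phospholipid genes had 4 of 62 members higher and 4 lower, 12.9% against 7.27% of all genes. Chka, which phosphorylates choline, had 81.4, 66.6, 91.8 and 119 CPM under CD and 22.2, 18.5, 32.5 and 36.4 CPM under HFD (log2 change -1.71, SE 0.24, adjusted p = 0.00174). Phospho1, a phosphatase of phosphocholine and phosphoethanolamine, fell (-1.62), as did Mboat1, a lysophospholipid acyltransferase (-1.65). Enpp2, which makes lysophosphatidic acid, rose (0.64, SE 0.12), and Agpat3 (0.43) rose with a call lost without HFD B (0.0607). Mfsd2a is the third that rose. Etnk2, an ethanolamine kinase (0.93), lost its call without HFD B (0.0631), and Ppap2c (-0.63) lost its call without CD A, CD B, CD C, CD D or HFD B (up to 0.105). Without HFD B 2 members rose and 3 fell. Of 38 sphingolipid genes 3 rose and 0 fell, 7.89% of the list against 7.27% of all genes. B4galt5, which makes lactosylceramide, led (1.05, SE 0.17), and Asah2 (0.64) and Smpd3 (1.04) lost their calls without HFD B, leaving 1. The diets overlapped in Smpd3, whose call was lost also without CD B, CD C, CD D, HFD A or HFD D (up to 0.149).

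Of 46 iron and haem genes 2 rose and 4 fell, 13% against 7.27% of all genes, and the hepcidin genes changed in opposite directions. Hamp, the hepcidin gene that controls plasma iron, had 680, 344, 501 and 735 CPM under CD and 212, 329, 159 and 174 CPM under HFD (log2 change -1.37, SE 0.27, adjusted p = 0.0128). Its neighbour Hamp2 had 2.55, 0.986, 2.14 and 6.92 CPM under CD and 87.9, 52.1, 22.8 and 20.3 CPM under HFD (log2 change 3.87, SE 0.63, adjusted p = 0.00441). The diets did not overlap in either gene, though HFD B and CD B came close in Hamp. Id3, a target of the BMP signal that also induces hepcidin, fell (-1.39, SE 0.25), and Id2 fell with a call lost without CD A, CD B, CD D or HFD B (-0.84, up to 0.0894). Slc39a14, a carrier of zinc, manganese and iron, rose (0.67, SE 0.13), and the iron transporter Slc11a2 fell (-0.49, up to 0.119 without CD B, CD C, HFD A, HFD B or HFD D). Without CD B or HFD B 2 members of the list fell.

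The promoters of both hepcidin genes are shown because near-identical upstream sequences stood before genes that changed in opposite directions. The 250 bases before each start are from RefSeq (GRCm38.p6, the assembly of mm10), chr7:30944030-30944279 for Hamp and chr7:30924182-30924431 for Hamp2, both on the minus strand and written 5′ to 3′. Capitals mark the bases that differ within the stretch where the pair can be aligned.
Hamp: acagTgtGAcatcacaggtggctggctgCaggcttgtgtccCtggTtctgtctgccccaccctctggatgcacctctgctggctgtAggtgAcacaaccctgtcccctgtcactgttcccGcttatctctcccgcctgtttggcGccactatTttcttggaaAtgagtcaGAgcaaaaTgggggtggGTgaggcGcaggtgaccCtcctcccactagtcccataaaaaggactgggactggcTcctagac
Hamp2: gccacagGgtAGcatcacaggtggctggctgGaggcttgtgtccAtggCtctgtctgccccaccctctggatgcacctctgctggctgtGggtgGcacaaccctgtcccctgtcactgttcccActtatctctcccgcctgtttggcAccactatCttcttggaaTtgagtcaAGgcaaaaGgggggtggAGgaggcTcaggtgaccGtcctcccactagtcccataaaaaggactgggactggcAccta
Of 247 aligned bases 227 were identical (91.9%). The letters GGCGCC, known as a BMP response element of hepcidin promoters and the same on both strands, occur at base 142 of the Hamp window and not in that of Hamp2, where the substitution G145A (counted from 1 at the 5′ end of the Hamp window) breaks them. The same letters occur in 1576 of 9462 promoter windows of this length among the listed genes (16.7%). A match is a description of letters, and binding was not measured here.

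Metal and selenium genes had 3 of 26 members higher and 2 lower. Selenbp2, a selenium-binding protein gene on chr3, had 1875, 851, 1124 and 714 CPM under CD and 208, 181, 404 and 267 CPM under HFD (log2 change -2.11, SE 0.33, adjusted p = 0.00361). The related gene Selenbp1 had 165 to 250 CPM under CD and 181 to 350 CPM under HFD and was not called (0.29, SE 0.20, adjusted p = 0.481). Slc39a4, a zinc importer, fell (-1.26, SE 0.20). Mt2, a metallothionein gene (1.56), and Dio1, a selenium enzyme that activates thyroid hormone (0.47), rose with calls lost without CD A, CD B, CD C or HFD B (up to 0.133), that of Mt2 also without HFD D and that of Dio1 also without CD D, HFD A or HFD C. The list had 1 higher member when CD A, CD B, CD C or HFD B was left out, and 4 lower without HFD A.

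The upstream sequences of this pair are shown for the same contrast, a called and an uncalled copy. They lie at chr3:94932833-94933082 for Selenbp1 and chr3:94693323-94693572 for Selenbp2, both on the plus strand (RefSeq, GRCm38.p6), and capitals mark bases that differ or have no partner in the alignment.
Selenbp1: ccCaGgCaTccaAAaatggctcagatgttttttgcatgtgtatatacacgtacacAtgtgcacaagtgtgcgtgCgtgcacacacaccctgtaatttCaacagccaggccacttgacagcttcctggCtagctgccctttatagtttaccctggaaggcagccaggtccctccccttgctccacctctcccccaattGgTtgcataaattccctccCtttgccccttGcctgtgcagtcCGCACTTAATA
Selenbp2: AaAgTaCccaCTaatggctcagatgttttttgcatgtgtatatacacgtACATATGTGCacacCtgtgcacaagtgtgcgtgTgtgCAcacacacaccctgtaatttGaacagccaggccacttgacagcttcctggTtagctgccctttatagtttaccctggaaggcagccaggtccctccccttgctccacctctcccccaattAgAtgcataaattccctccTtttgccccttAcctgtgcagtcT
Of 260 aligned columns 223 were identical (85.8%), and 22 of the others had a gap. Some of these gaps lie at the downstream end, where the Selenbp1 window runs on past the last shared stretch. Such an overhang was left out for the hepcidin pair, so the shares of the pairs are not counted alike.

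**Figure D3:**
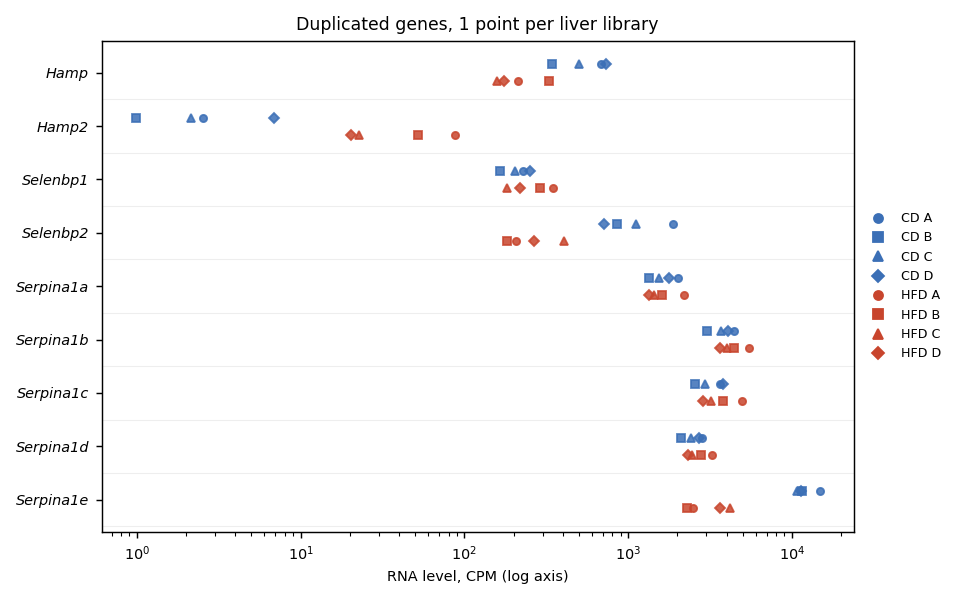
Levels of duplicated genes in each library, in CPM on a log axis, with CD in blue and HFD in red. Hamp and Hamp2 move in opposite directions, Selenbp2 and Serpina1e fall, and Selenbp1 and the other Serpina1 genes overlap between the diets.

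The serpins, plasma protease inhibitors and their relatives, had 5 of 30 members higher and 3 lower. Serpina1e, one of the alpha-1-antitrypsin genes, had 14770, 11487, 10682 and 11340 CPM under CD and 2503, 2302, 4199 and 3635 CPM under HFD (log2 change -1.93, SE 0.21, adjusted p = 5.08e-04). The other 4 antitrypsin genes of the cluster, Serpina1a (-0.02), Serpina1b (0.21), Serpina1c (0.19) and Serpina1d (0.10), were not called. The pseudogene Serpina4-ps1 fell from 420, 339, 138 and 95.4 CPM to between 25.8 and 49.1 CPM (log2 change -2.75, SE 0.45). Serpina3m (0.92, SE 0.11) and Serpina3n (0.83, SE 0.13) rose, while Serpina3k fell (-0.64, adjusted p = 0.0212, and 0.0763 without HFD B). All of these lie in a stretch of 768 kb on chr12 with 15 listed genes, of which 4 rose, 3 fell and 8 were not called. Serpinb8, of another subfamily, rose by log2 1.42.

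Major urinary proteins, small pheromone carriers that male mice secrete in large amounts, had 9 of 14 members lower and 0 higher, with a median of -1.19. Mup14 had 1482, 1079, 1156 and 964 CPM under CD and 371, 228, 469 and 275 CPM under HFD (log2 change -1.80, SE 0.22, adjusted p = 9.44e-04). Mup20, the pheromone darcin, had 9631 to 10701 CPM under CD and 7156, 5876, 5432 and 4521 CPM under HFD (log2 change -0.82, SE 0.15, adjusted p = 0.00742). Mup15 (-2.55), Mup8 (-1.54), Mup2 (-1.61) and Mup7 (-1.21) fell as well. Summed over the family, the level was 25601 to 30530 CPM under CD and 23802, 17624, 19082 and 15120 CPM in HFD A to D. Each HFD sum thus lay below each CD sum, but this rests on Mup20, and without that gene the sums of the diets overlap. The mean log2 level over the 14 members, relative to the CD mean, was -0.37 to 0.47 under CD and -1.55 to -0.91 under HFD. The genes are near-identical, and values of single members are uncertain.

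Secreted growth regulators had 5 of 43 members higher and 4 lower, and 3 higher without CD C or HFD B. Igfbp1, which binds insulin-like growth factors, had 116, 109, 102 and 48.3 CPM under CD and 12.4 to 22 CPM under HFD (log2 change -2.54, SE 0.27, adjusted p = 4.98e-04), and Igfbp3 fell by 0.72. The activin subunit genes diverged: Inhbe, made mainly by liver, rose from between 32.6 and 45.8 CPM to between 65.4 and 79.2 CPM (log2 change 1.03, SE 0.13, adjusted p = 9.44e-04), and Inhba fell from between 7.31 and 19.6 CPM to between 3.8 and 6.03 CPM (-1.55, SE 0.30, adjusted p = 0.0101). Lect2, a hepatokine, rose from between 58.6 and 80.8 CPM to between 139 and 203 CPM (log2 change 1.21, SE 0.15). Il1rn, the interleukin-1 receptor antagonist, rose by log2 1.44.

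Purine and pyrimidine breakdown had 6 of 26 members higher and 2 lower. Uox, the urate oxidase, had 1417 to 1818 CPM under CD and 3462, 3463, 2733 and 2562 CPM under HFD (log2 change 0.92, SE 0.14, adjusted p = 0.00266). Upp2, which splits uridine, had 70, 60, 67 and 119 CPM under CD and 420, 524, 177 and 307 CPM under HFD (adjusted p = 0.00267). Xdh, which makes urate, rose (0.48), but not past the threshold if CD A, CD B, CD C or any of HFD B, C and D was left out (up to 0.0779). Pnp, the purine nucleoside phosphorylase, fell from between 66.7 and 84.6 CPM to between 38.1 and 46.1 CPM (log2 change -0.81, SE 0.10, adjusted p = 0.00113), and Cda, the cytidine deaminase, fell by 1.08. Without CD C or HFD B 3 members rose. Of 23 NAD and nicotinamide genes 3 rose and 1 fell, the last being Aox1. Nnmt, which methylates nicotinamide, had 24.5 to 46.5 CPM under CD and 66.6 to 99 CPM under HFD (log2 change 1.34, SE 0.21, adjusted p = 0.00409). Tdo2, which opens the tryptophan ring (0.51), and Nnt, a mitochondrial transhydrogenase (0.41), rose with calls lost without HFD B, and that of Nnt also without CD A. The list had 1 higher member without HFD B and 5 without HFD C or HFD D.

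Organic ion and drug transporters changed in equal numbers, 8 higher and 8 lower of 43, or 37.2% of the list, and 5 lower without CD C. Slco2a1, a prostaglandin carrier, had 144 to 177 CPM under CD and 57.4 to 74.1 CPM under HFD (log2 change -1.24, SE 0.11, adjusted p = 1.77e-04). The monocarboxylate transporters diverged, Slc16a7 rising (1.11, SE 0.14) and Slc16a1 falling (-0.76, SE 0.10). Slc13a2, a citrate and succinate carrier, fell by 2.65, and Slc17a4, an organic anion transporter, rose by log2 1.01. The paralogous drug pumps also diverged: Abcb1a rose from between 1.52 and 2.69 CPM to between 3.53 and 9.4 CPM (2.82-fold, adjusted p = 0.0105), and Abcb1b fell from between 1.61 and 3.7 CPM to between 0.482 and 1.19 CPM (log2 change -1.89, SE 0.34, adjusted p = 0.00744).

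**Figure D4:**
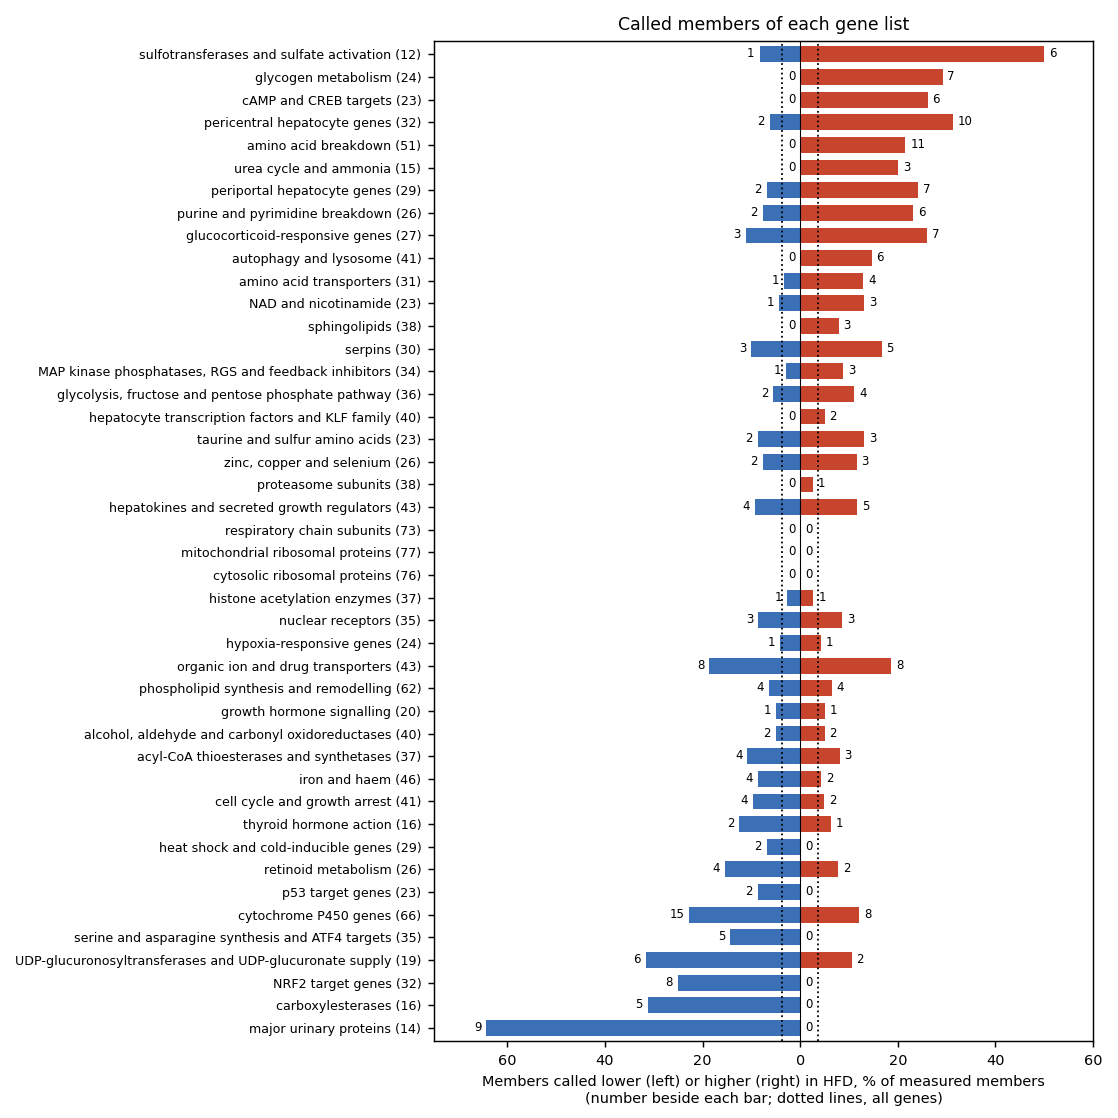
Share of the measured members of each gene list that were called lower (blue, left) or higher (red, right) in HFD, in percent, with the number of called members beside each bar and the number measured in parentheses. Dotted lines mark the shares over all genes, 3.64% and 3.63%, and the major urinary proteins, carboxylesterases and NRF2 targets have bars on the left side only.

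Among regulators of signalling and growth, MAP kinase phosphatases, RGS and related inhibitors had 3 of 34 members higher and 1 lower. That was 11.8% of the list, against 7.27% of all genes. Spry4, an inhibitor of growth factor receptors, rose from between 5.14 and 13.1 CPM to between 17.5 and 28.7 CPM (log2 change 1.37, SE 0.27, adjusted p = 0.0122), and Dusp8, a MAP kinase phosphatase, fell by 2.43. The call of Spred1 (0.67), a relative of Spry4, was lost without CD A, CD B, CD C, CD D, HFD B, HFD C or HFD D (up to 0.123), and Rgs16 is the remaining member that rose. Without CD A or CD C 1 member rose, and without CD D 3 fell. Cell cycle genes had 2 of 41 members higher and 4 lower, 14.6% against 7.27% of all genes. The growth arrest genes Ccng2 (-1.13) and Cdkn1a (-1.84) fell and Tob2 rose (0.99), while Wee1, a brake on mitosis, rose from between 2.61 and 3.67 CPM to between 6.86 and 16.6 CPM (log2 change 1.78, SE 0.26). Myc had 20.7, 25.4, 11.8 and 3.88 CPM under CD and 1.13 to 3.62 CPM under HFD (log2 change -2.62, SE 0.53, adjusted p = 0.0143), so its CD libraries spanned a wide range and CD D lay close to the HFD libraries. Btg2, another growth arrest gene, fell with a call lost without CD A, CD C, CD D or HFD B (-0.75, up to 0.0753). Without HFD C and D 9 members of this list fell.

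Enzymes that add or remove histone acetyl groups were measured in 37 of 37 cases, and 1 rose and 1 fell, 5.41% against 7.27% of all genes. Hdac11 had 49.8 to 51.5 CPM under CD and 84.9, 82.6, 66.2 and 69.6 CPM under HFD (log2 change 0.59, SE 0.10, adjusted p = 0.0063), and Hdac5 had 44.7 to 56.3 CPM under CD and 25.6 to 36 CPM under HFD (-0.64, SE 0.13, adjusted p = 0.0123). Of 40 hepatocyte transcription factors and KLF factors Klf15 and Klf13 (1.10) rose and 0 fell, 5% against 7.27% of all genes. Other lists had 2 to 6 called members each, between 6.9% of the heat shock genes and 18.8% of the thyroid genes, against 7.27% of all genes. Heat shock genes had 2 of 29 lower, Hspb1 (-1.16) and Hsp90aa1 (-0.51, lost without CD A, CD C or HFD B, up to 0.0796). Hypoxia genes had 1 of 24 higher, Bnip3 (0.73), and 1 lower, Ndrg1 (-1.66). The 2 called p53 targets of 23, Cdkn1a and Btg2, are those above. Growth hormone signalling had 1 of 20 higher, Prlr (0.67), and 1 lower, Stat5a (-0.50, up to 0.117 without CD A, CD B, CD C, CD D, HFD B or HFD C). Thyroid genes had Dio1 higher and Hr (-2.09) and Thra lower of 16. Autophagy and lysosome genes had 6 of 41 higher and 0 lower, and 3 higher without CD A, CD B, CD C or HFD B. Without HFD A and B 3 were higher and 1 lower, and without HFD A alone 6 were higher and 2 lower. The called members of this list included the proton pump gene Atp6v0d2 (1.86), Bnip3, Atg10 (0.69), Atg5 (0.36) and Atg14 (0.41). The last 3 lost their calls without CD A, CD B, CD C or HFD B, Atg10 and Atg14 also without CD D, and Atg5 also without HFD C (up to 0.127).

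Genes of both ends of the liver lobule were called higher more often than lower. Of 32 pericentral genes 10 rose and 2 fell, and of 29 periportal genes 7 rose and 2 fell, with medians of 0.25 and 0.33. Pericentral genes that rose included Gulo, which makes vitamin C, with 385 to 511 CPM under CD and 709 to 725 CPM under HFD (log2 change 0.72, SE 0.11, adjusted p = 0.00298), and Cyp2a5, with 115 to 251 CPM under CD and 414 to 552 CPM under HFD (1.44, SE 0.23). Among the periportal genes Cdh1, the epithelial cadherin, fell from between 116 and 129 CPM to between 65.6 and 84.1 CPM (log2 change -0.72, SE 0.10, adjusted p = 0.00222), and Cyp2f2 fell by 0.66. Without HFD B 6 pericentral genes rose and 1 fell, 1 fell also without CD A, CD B, CD C, CD D or HFD C, and 4 fell without HFD A. Without CD A, CD B, CD C or HFD B 4 periportal genes rose. Without HFD A and B 3 rose, and without HFD C and D 12 did.

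The large protein machines had almost no called members. Of 76 cytosolic ribosomal proteins, 77 mitochondrial ribosomal proteins and 73 respiratory chain subunits 0 were called by edgeR's quasi-likelihood test. The directions were nevertheless uneven, with 74 of 76 cytosolic ribosomal changes negative (median -0.16) and 70 of 73 respiratory chain changes positive (median 0.13), against 6400 positive and 5934 negative over all genes. Relative to the CD mean, where the CD libraries spanned -0.20 to 0.19, the mean log2 level of the cytosolic ribosomal genes was 0.23, -0.18, -0.30 and -0.47 in HFD A to D. That of the respiratory chain genes spanned -0.24 to 0.20 under CD and was 0.59, 0.14, -0.10 and -0.21 in HFD A to D. Without HFD A 11 cytosolic ribosomal genes were called lower, and without HFD A and B 9 were. Of 38 proteasome subunits 1 rose, the immune subunit Psmb9 (0.87, adjusted p = 0.0378, up to 0.103 without CD B, CD C, CD D, HFD A, HFD B or HFD D).

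HFD A and B, which stood apart from HFD C and D, lay farther from the CD libraries more often than nearer to them. This held in the genes called higher and, less strongly, in those called lower. Both were above both of the others in 218 of the 448 genes called higher (48.7%), and in 27.9% of all genes. Both were below both of the others in 147 of the 449 genes called lower (32.7%), near the 28.8% of all genes. The opposite order held in 34 of the genes called higher (7.59%, against 28.8% of all genes). Among those called lower it held in 63 (14%, against 27.9% of all genes). Markers of other cells moved along the same division. The 14 sinusoidal endothelium markers summed to 237 and 276 CPM in HFD A and B, 448 and 449 CPM in HFD C and D and 288 to 391 CPM under CD, with 0 of 14 called. The 16 measured Kupffer cell and macrophage markers summed to 294 to 428 CPM under CD, to 237 and 363 CPM in HFD A and B and to 692 CPM in HFD D, with HFD C between HFD B and D, with 0 of 16 called. The 15 stellate cell and fibroblast markers summed to 381 and 361 CPM in HFD A and B, 546 and 628 CPM in HFD C and D and 475 to 547 CPM under CD, with 0 of 15 called. Without HFD A and B 4 endothelial, 3 macrophage and 3 stellate markers were called higher, and without HFD C and D 5 stellate markers were called lower. Of the fits without 1 library, that without HFD A called 1 macrophage marker higher and that without HFD D 1 stellate marker lower. Their part in the results above was not tested. Fits that held the endothelial or the macrophage level constant called 1500 and 1602 genes, and each of the 897 was among them. Both levels overlapped between the diets. Each was the mean of only 14 or 16 markers, taken from the same libraries, with 4 libraries per diet. These fits therefore cannot show what part cell composition had in the calls. The stellate and cholangiocyte levels were not fitted.

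Of 7 measured cholangiocyte markers 1 fell, Sox9, from between 9.43 and 19.7 CPM to between 2.98 and 6.09 CPM (log2 change -1.45, SE 0.27, adjusted p = 0.00987), all 7 had negative changes, and the list summed to 85.4 to 101 CPM under CD and 57.7 to 84.8 CPM under HFD. Of 3 measured erythroid markers Slc4a1 fell (-1.30, adjusted p = 0.0266, up to 0.0898 without CD B, CD D or HFD B). Of 12 listed genes of the acinar pancreas 1 was measured, Cela1, and it rose from between 14.4 and 23.6 CPM to between 28.3 and 40.9 CPM (log2 change 0.84, SE 0.16, adjusted p = 0.0115). Lymphocyte markers (4 measured), a neutrophil marker, an adipocyte marker and a muscle marker had 0 calls.

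**Figure D5:**
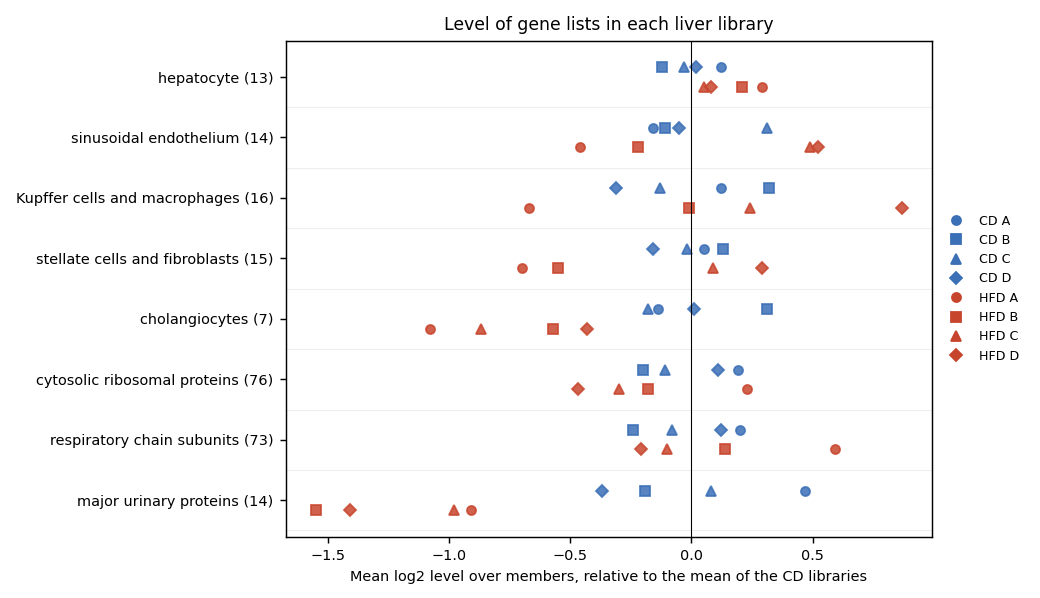
Mean log2 level of gene lists in each library relative to the mean of the CD libraries, with the number of measured members in parentheses, CD in blue, HFD in red and a symbol for each letter. The stellate and endothelial lists place HFD A and B left of HFD C and D, and the major urinary proteins place all HFD libraries left of the CD libraries.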

How the data were processed

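The values used are raw counts per gene from the deposited RNA table, with gene coordinates in mm10 per the submitters' processing notes. The sources used here do not give the aligner, the counting program or its strand setting, and the RNA was selected by its poly(A) tail per the series' design text. The deposited count columns of 8 libraries were matched to samples by their names, 0 per-sample columns were left unmatched, and 4999 lines without a gene symbol were left out of library sizes and tests. Nothing in the labels says that libraries of a diet came from separate animals, and p-values then measure only the spread between these samples, which may be technical.

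Counts were scaled by TMM and tested with edgeR 4.0.16 (R 4.3.3) by glmQLFit and glmQLFTest with diet as the only term. The filter filterByExpr removed 0 of 12334 genes. Adjusted p-values are Benjamini-Hochberg values over all genes, the SE is the log2 change divided by the square root of the F statistic, and principal components and list levels use log2 CPM with a prior count of 2. DESeq2 1.42.0 and limma 3.58.1 served as alternatives. The interval of the Cyp2b9 ratio has a confidence level of 95% and covers counting error only.

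The genes and the gene lists were chosen with earlier results of these data known. Named genes were called, did not overlap between the diets and lay outside the clock and cholesterol lists. They were the 20 largest increases and 20 largest decreases with a mean of at least 15.9 CPM, the 10 smallest p-values, and up to 6 called members with the smallest p-values in each list. The plan had been up to 6 members per list whether called or not, and those not called were left out. Ethe1 and Smpd3, which overlap between the diets, were named as list members. Named outside this rule, after their values were seen, were Abcb1a, Abcb1b, Acsl1, BC089597, Ces2e, Cyp2e1, Etnk2, Gbe1, Gsr, Papss1, Ppap2c, Rdh7, Rdh18-ps, Sdr9c7, Selenbp1, Serpina1a, Serpina1b, Serpina1c, Serpina1d, Serpina3k, Ugt2a3, Ugt2b1, Ugt2b34, Ugt2b35, Ugt2b36 and Ugt3a1. Counts of near-identical genes (Cyp2b, Cyp2c, Cyp4a12, Ugt1a, Ugt2b, Mup, Serpina1, Serpina3, Hamp, Selenbp, Ces and Gstm families) are uncertain, as are those of overlapping and antisense genes. Some genes that meet the rule are not reported here, although the counts over lists and over all genes include them.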

Additional observations from a re-analysis of the deposited data

Results flagged for a closer look

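Each group of 4 libraries was examined for a value far from the other 3, for the 214 named genes in both diets (428 groups). A value was listed where its gap to the nearest library passed Dixon's critical value as a share of the group's range, and chance lists about 1 in 20 groups. Of the 428 groups 27 held such a value. CD A stood apart in Abcg5 (35.7 CPM, nearest 46.1 CPM), Ces2c (62.9 CPM, nearest 38.2 CPM), Fabp5 (70.1 CPM, nearest 30.9 CPM), Pfkfb4 (1.52 CPM, nearest 1.06 CPM), Rarres1 (107 CPM, nearest 59 CPM) and Serpina3k (15828 CPM, nearest 11629 CPM). CD B stood apart in Acnat2 (16.4 CPM, nearest 9.43 CPM), Gclc (867 CPM, nearest 616 CPM), Slc2a5 (2.8 CPM, nearest 4.61 CPM), Tsc22d3 (31 CPM, nearest 54.6 CPM), Ugt2b35 (606 CPM, nearest 422 CPM) and Usp2 (4.05 CPM, nearest 2.42 CPM). CD C stood apart in Cyp2b9 (0 CPM, nearest 0.0266 CPM, which is 0 reads against 1 read and too few for the gap to have a meaning), Mat1a (1879 CPM, nearest 1565 CPM) and Tob2 (27.5 CPM, nearest 36.8 CPM). CD D stood apart in Rgs16 (14.8 CPM, nearest 2.27 CPM), Spred1 (12.5 CPM, nearest 19.2 CPM) and Upp2 (119 CPM, nearest 70 CPM). HFD A stood apart in Apoa4 (928 CPM, nearest 678 CPM), Gbe1 (166 CPM, nearest 214 CPM) and Slco2a1 (57.4 CPM, nearest 72.6 CPM). HFD B stood apart in Cyp4a12a (159 CPM, nearest 86.5 CPM) and Osgin1 (78.3 CPM, nearest 134 CPM). HFD C stood apart in Acot11 (13.6 CPM, nearest 16.7 CPM) and Ppap2c (8.2 CPM, nearest 12.8 CPM). HFD D stood apart in Cyp2e1 (7607 CPM, nearest 8880 CPM) and Slc34a2 (0.395 CPM, nearest 0.151 CPM).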

How the results depend on the processing

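Against 897 called genes, 448 higher and 449 lower, DESeq2 called 1405 (716 and 689), and the 6167 genes at or above the median level gave 545 (271 and 274). A test against a 1.5-fold change left 186 (80 and 106). With the endothelial marker level as a term 1500 were called (735 and 765), and with the macrophage marker level 1602 (801 and 801). Leaving out 1 library at a time gave 478 to 1107 called, 224 to 524 higher and 254 to 583 lower. Scaling by library totals alone gave 859 (367 and 492), size factors of the DESeq2 type 896 (447 and 449), limma-voom 889 (429 and 460) and no filter 897 (448 and 449). The labels do not say whether equal letters mark anything shared between the diets. The correlations of same-letter deviations were 0.29, 0.06, 0.23 and -0.22 for A to D. Different letters gave values as far apart as -0.41 (CD B with HFD A) and 0.37 (CD D with HFD A), so these correlations cannot settle it. With the letter as a replicate block 826 genes were called (398 and 428), 729 of them among the 897, and 16 of 214 named genes lost their call. Leaving out HFD A and B, or HFD C and D, was chosen after seeing the data: of the 201 named genes that were called, 162 and 185 were called then, and all 201 kept their direction in both. Without HFD B 32 of the 114 counts of called list members moved by over 1.5 times, and without any other single library 13 to 23 did, so counts of a few genes are unstable. The cause of these shifts was not tested. With 4 libraries per diet, small changes may not be detectable, and a gene that was not called is not shown to be unchanged.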
